A study of Mus musculus with 23 samples.

Results

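The Fc gamma receptors bind the constant part of immunoglobulin G (IgG) and let macrophages take up and respond to antibody-coated targets. In the mouse they comprise the high-affinity receptor Fcgr1, the lower-affinity activating receptors Fcgr3 and Fcgr4, the inhibitory receptor Fcgr2b, and Fcer1g, the common gamma chain that the activating receptors need for surface expression and signalling. These 5 genes were found by symbol in the deposited gene table. They are 5 of 52636 genes in the tables, and all 5 were among the 15782 that passed the filter on low counts. RNA was measured by sequencing in bone marrow-derived macrophages (BMDMs), macrophages grown from marrow cells in culture. The libraries carried the genotype label Stk40 WT (wild type) or Stk40 KO (knockout). T0 was untreated, and at T6, T16 and T32 the cells had received lipopolysaccharide (LPS), which comes from the outer membrane of bacteria and activates macrophages. No untreated library was available at T6, T16 or T32. Changes under LPS are therefore changes from T0, in which LPS and time in culture cannot be told apart. Where LPS is said below to raise or lower a gene, this comparison is meant. Each of the 8 groups had 3 libraries except WT at T16, which had 2. None of the sources used here gives the unit of time, the strain, the age of the mice or the way the knockout was made. The labels do not say whether replicates were separate mice or cultures, so the p-values reflect the spread between these libraries alone. That spread may be technical in whole or in part. In WT, Y-linked transcripts differed between libraries of a group, as given below, so those libraries were not all from the same animal.

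Activating Fc gamma receptors signal through an immunoreceptor tyrosine-based activation motif (ITAM) in the gamma chain, which is phosphorylated by Src-family kinases and recruits the kinase Syk. Fcgr2b carries an inhibitory motif (ITIM) in its own tail and recruits the phosphatase SHIP-1, the product of Inpp5d. The ratio of activating to inhibitory receptors is known to set the threshold at which IgG complexes trigger a macrophage, and interferons and LPS are known to change receptor expression.

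Total counts ran from 19455080 to 44097733 per library, and each of the 5 genes had between 4082 and 125232 counts in every library. Stk40 RNA itself measured 39.7 to 335 CPM (counts scaled to library size) in libraries labelled WT and 51.7 to 388 CPM in those labelled KO, with the mean of the KO group above that of the WT group at each of the 4 time points. It therefore gave no check of the genotype labels, and a deletion that leaves the RNA in place would not be seen in gene counts. Mitochondrial genes took 0.355% of the counts in KO T0 replicate 1 and between 1.38% and 1.82% in the rest of T0, and the 2 WT libraries at T16 differed widely from each other. Y-linked transcripts were present in 4 WT libraries (replicate 2 of T0, replicate 1 of T6, replicate 2 of T16 and replicate 3 of T32) and near 0 in the others. They mark cells of males, so every WT group mixed the sexes while no KO library held such transcripts above near 0. The genotype comparisons therefore partly mix sex with genotype, and fits without these 4 libraries are given at the end. Macrophage markers summed to between 14504 and 28901 CPM in every library. Neutrophil markers were low but summed to more in every KO library than in every WT library at T0, T6 and T32. The sums were 611 to 704 CPM against 320.1 to 609 CPM in WT at T0, and 581 to 704 CPM against 303 to 524 CPM at T6. At T32 they were 85.7 to 133 CPM against 49.2 to 69.0 CPM. At T16 the genotypes overlapped, at 302 to 376 CPM in KO and 135 to 324 CPM in WT. Neutrophils also express Fc gamma receptors, and the part of these cells in the values below was not tested. Markers of natural killer and T cells summed to at most 2.08 CPM in any library and those of mast cells and basophils, mostly Kit, to at most 6.42 CPM. Mcpt4 of mast cells was at 0 in every group and Ncr1 of natural killer cells reached a group mean of 0.216 CPM. Low as they were, 2 of 3 tested markers of the first list and 2 of 2 of the second were called as higher in KO in the average over time points, and their part in the values below was not tested. Markers of B cells summed to 6.34 to 90.8 CPM (2 of 6 tested higher and 1 lower in KO in the average) and those of dendritic cells to 2.56 to 18.95 CPM (1 of 5 higher), and of the neutrophil markers 5 of 10 were higher in the average. Over all genes tested, 22.3% were called in the average, 12.1% as higher in KO. In bulk RNA, fewer cells of a type and less RNA per cell cannot be told apart.

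Of the 5 genes, 4 lie in a cluster on chromosome 1 of GRCm38: Fcgr2b at chr1:170958617-170976547, Fcgr4 at chr1:171018920-171029761, Fcgr3 at chr1:171051174-171064935 and Fcer1g at chr1:171229572-171234365. Fcgr4 is on the plus strand and the other three are on the minus strand. Fcgr1 lies apart at chr3:96282909-96293969 on the minus strand. Fcgr2b and Fcgr3 are close relatives in the part that encodes the IgG-binding domains, and this bears on how far their counts can be separated. Their longest identical stretch of coding sequence spans 129 bases, from base 278 to 406 of the Fcgr2b coding sequence and from base 260 to 388 of that of Fcgr3 (GENCODE M21 transcripts). It is shown because a read of 50 bases that falls inside it could come from either gene.
Fcgr2b and Fcgr3 shared coding stretch: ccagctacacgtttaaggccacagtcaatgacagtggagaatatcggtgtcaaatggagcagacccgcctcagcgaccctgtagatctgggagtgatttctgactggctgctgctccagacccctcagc

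Of the 1733 distinct runs of 50 bases in Fcgr3 transcripts, 166 (9.58%) also occurred in Fcgr2b, where they made up 2.92%. In all, 395 of the 5685 runs of Fcgr2b (6.95%) occurred in 1 or more of 146 other genes. No run of Fcgr1, Fcgr4 or Fcer1g occurred in any other gene. The deposited counts are of uniquely aligned reads, per the file headers, so reads from such runs would be left out of both genes. An antisense gene, Gm38204, overlaps 155 exon bases of Fcgr2b, and the library kit did not mark strand, so reads there could not be told apart.

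The regions before the start sites of Fcgr1, Fcgr4 and Fcgr3 are shown because the profiles of the first and second of these genes were the most alike among the 5 and that of the third was less like them. Each is the 250 bases upstream of the RefSeq start site on GRCm38.p6, written 5′ to 3′ along the gene. Capitals mark matches to any of 4 motifs, searched on both strands: TTCNNNGAA (GAS, the gamma interferon activation site), GAAA repeated after any 2 bases (the core of the interferon-stimulated response element, ISRE), GAGGAA (the core bound by PU.1, the product of Spi1) and TTGCNNAA (bound by C/EBP factors).
Fcgr1 upstream, chr3:96293970-96294219, minus strand: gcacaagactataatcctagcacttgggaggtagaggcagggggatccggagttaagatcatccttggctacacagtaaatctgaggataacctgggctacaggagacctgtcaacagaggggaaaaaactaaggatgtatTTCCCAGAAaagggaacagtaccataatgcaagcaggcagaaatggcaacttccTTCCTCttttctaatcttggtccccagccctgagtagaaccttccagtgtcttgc
Fcgr4 upstream, chr1:171018676-171018925, plus strand: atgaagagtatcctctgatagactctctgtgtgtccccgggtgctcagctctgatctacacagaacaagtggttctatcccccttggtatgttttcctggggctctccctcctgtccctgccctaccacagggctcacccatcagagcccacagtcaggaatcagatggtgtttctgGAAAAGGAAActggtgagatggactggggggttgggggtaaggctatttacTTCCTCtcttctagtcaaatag
Fcgr3 upstream, chr1:171059404-171059653, minus strand: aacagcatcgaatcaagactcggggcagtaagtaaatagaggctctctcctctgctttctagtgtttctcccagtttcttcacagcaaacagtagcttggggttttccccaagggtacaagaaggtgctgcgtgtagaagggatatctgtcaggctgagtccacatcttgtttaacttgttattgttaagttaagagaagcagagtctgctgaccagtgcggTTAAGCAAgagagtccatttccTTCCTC

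The Fcgr1 region held a GAS match, TTCCCAGAA, beginning at -109 from the start site, and a PU.1 core on the minus strand at -55. The Fcgr4 region held an ISRE core, GAAAAGGAAA, at -73 and a PU.1 core on the minus strand at -22. The Fcgr3 region held a C/EBP match on the minus strand at -28 and a PU.1 core on the minus strand at -6. No marked match overlapped another. The regions of Fcgr2b and Fcer1g held none of the 4 motifs. That of Fcgr2b lay inside the GENCODE gene, with 187 of its 250 bases in GENCODE exons. Among 32851 RefSeq regions of the same length, GAS matches occurred in 7.02%, ISRE cores in 2.98%, PU.1 cores in 23.3% and C/EBP matches in 9.56%. The Fcgr3 start site used here lies inside the GENCODE gene, and RefSeq lists another 9 bases further downstream. These are matches of letters, not measured binding sites.

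Fcgr1 is the only one of the 5 whose product binds monomeric IgG with high affinity. In WT libraries it measured 386, 454 and 289.8 CPM at T0, 2955, 2438 and 2133 at T6, 2081 and 3728 at T16, and 1585, 1439 and 2088 at T32, in order of replicate. In KO libraries the levels were 1102, 780.1 and 898 CPM at T0, 2937, 2676 and 2966 at T6, 3289, 3024 and 3134 at T16, and 2319.9, 2401 and 2281 at T32. Every LPS library of a genotype lay above every T0 library of that genotype, and at T0 every KO library lay above every WT library. The order of the group means from the top was KO T16, WT T16, KO T6, WT T6, KO T32, WT T32, KO T0 and WT T0. Neighbours overlapped in the range of their libraries down to KO T32, and from KO T32 to WT T32 to KO T0 to WT T0 no neighbouring groups overlapped.

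The untreated genotype difference of Fcgr1 (377 ± 82.7 against 927 ± 163 CPM, SD, n = 3 and 3) was 1.30 ± 0.21 on the log2 scale (SE, adjusted p = 0.0011). A call, or passing the test, here means an adjusted p under 0.05 over all genes in an edgeR quasi-likelihood fit to all 23 libraries. Fcgr1 was the only one of the 5 called at T0, where 1.95% of all genes tested were called, 1.83% as higher in KO. The summed neutrophil markers were also higher in all 3 untreated KO libraries, by the values given above, and their part in the difference was not tested. The call held when each T0 library was left out in turn, with values from 1.16 to 1.46. The lowest value, with an adjusted p of 0.00911, came without KO T0 replicate 1, the library with few mitochondrial counts. At T6 the difference was 0.19 ± 0.21 (adjusted p = 0.89) and at T16 0.12 ± 0.23 (adjusted p = 0.78), neither past the threshold. At T32 the KO libraries again lay above all WT libraries, with a difference of 0.45 ± 0.21 and an adjusted p of 0.23. Averaged over the 4 time points, Fcgr1 was higher in KO by 0.51 ± 0.11 (adjusted p = 0.0018).

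Fcgr3 encodes a lower-affinity activating receptor for IgG complexes. Its WT levels were 775, 677 and 527 CPM at T0, 1489, 1274 and 1029 at T6, 685 and 1002 at T16, and 691, 749.8 and 624 at T32. Its KO levels were 414, 505 and 438 CPM at T0, 1259, 969 and 1154 at T6, 938, 910.03 and 928 at T16, and 732, 757 and 738 at T32. It was the gene with the smallest range, and the only receptor whose untreated level was lower in every KO library than in every WT library. The order of its group means ran WT T6, KO T6, KO T16, WT T16, KO T32, WT T32, WT T0 and KO T0. Only KO T6 and KO T16, and WT T0 and KO T0, were neighbours whose libraries did not overlap.

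The untreated difference of Fcgr3 was -0.54 ± 0.17 (KO minus WT, log2, SE) and did not pass the test (adjusted p = 0.13). It passed with DESeq2 (-0.54, adjusted p = 0.0497) and with scaling by library totals (-0.68, adjusted p = 0.0166). When each T0 library was left out in turn, the difference ran from -0.67 to -0.39 and never passed. The value nearest 0 came without WT T0 replicate 1. Without KO T0 replicate 1, which had the lowest level, the difference was -0.48 (adjusted p = 0.497). The differences at T6, T16 and T32 were -0.17 ± 0.17, 0.13 ± 0.19 and 0.11 ± 0.17, and the average over the 4 time points was -0.12 ± 0.09 (adjusted p = 0.34). With the counts of Fcgr2b and Fcgr3 summed as 1 feature, the untreated difference was -0.33 (adjusted p = 0.585).

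Fcgr4 encodes the activating receptor that binds mouse IgG2 complexes, and it is known to be restricted to myeloid cells. WT libraries held 176, 159.5 and 97.2 CPM at T0, 1363, 972 and 940.2 at T6, 727 and 1468 at T16, and 530.2, 714 and 765 at T32. KO libraries held 377, 214 and 250.2 CPM at T0, 1282, 967 and 1324 at T6, 1211, 1088 and 1156 at T16, and 640.3, 758 and 714 at T32. All 3 untreated KO libraries lay above the 3 WT ones, and the genotypes overlapped at every LPS time point. The group means ran KO T6, KO T16, WT T16, WT T6, KO T32, WT T32, KO T0 and WT T0. Ranges did not overlap between WT T6 and KO T32, between WT T32 and KO T0, or between KO T0 and WT T0.

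The untreated difference of Fcgr4 (144 ± 41.6 against 280.5 ± 85.9 CPM, n = 3 and 3) was 0.96 ± 0.26 on the log2 scale, with an adjusted p of 0.07. It rested in part on KO T0 replicate 1, the highest library at 377 CPM. Without that library the value was 0.69 (adjusted p = 0.486), and without KO T0 replicate 2 it was 1.12 and passed (adjusted p = 0.0377). DESeq2 also called it (0.97, adjusted p = 0.0144). At T6, T16 and T32 the differences were 0.13 ± 0.26, 0.07 ± 0.29 and 0.07 ± 0.26. The average, 0.31 ± 0.13, did not pass (adjusted p = 0.11), but passed without WT T16 replicate 2 (0.45, adjusted p = 0.0214).

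Fcgr2b encodes the inhibitory receptor. It measured 219, 221 and 133 CPM at T0, 1757, 1719.99 and 1015 at T6, 516 and 745 at T16, and 386, 627 and 617 at T32 in WT. In KO it measured 269.8, 191 and 208 CPM at T0, 1814, 1853 and 1975 at T6, 1063, 934 and 1161 at T16, and 627, 691 and 692 at T32. The level peaked at T6 in both genotypes, and every KO library lay above every WT library at T6 and at T16. The order of its group means was KO T6, WT T6, KO T16, KO T32, WT T16, WT T32, KO T0 and WT T0. Neighbours without overlap were KO T6 and WT T6, KO T16 and KO T32, and WT T32 and KO T0.

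The genotype difference of Fcgr2b was above 0 at all 4 time points, at 0.22 ± 0.23, 0.33 ± 0.23, 0.74 ± 0.26 and 0.30 ± 0.23, and passed the test at none of them (adjusted p = 0.84, 0.76, 0.088 and 0.55). DESeq2 called the T16 value (0.75, adjusted p = 0.0368). The average over time points, 0.40 ± 0.12, passed (adjusted p = 0.021). It did not pass without WT T16 replicate 1 (0.34, adjusted p = 0.0522), with scaling by library totals (0.23, adjusted p = 0.0782) or with Fcgr2b and Fcgr3 summed (0.10, adjusted p = 0.438). The summed counts are a different quantity, since they include Fcgr3 with its average of -0.12, and they do not test the Fcgr2b counts alone. In the main fit Fcgr1 and Fcgr2b were the 2 of 5 genes called in the average, both as higher. Of all genes tested, 22.3% were called there and 12.1% as higher.

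Fcer1g encodes the gamma chain, which carries the activation motif for Fcgr1, Fcgr3 and Fcgr4 and also pairs with other myeloid receptors. Its WT levels were 824, 730.3 and 674 CPM at T0, 2525, 2321 and 1739.8 at T6, 1934 and 4196 at T16, and 1520.4, 2125 and 1965 at T32. Its KO levels were 781, 1007 and 868 CPM at T0, 2242, 2527 and 2282 at T6, 3032, 2690.3 and 2982 at T16, and 1897, 2037 and 2247 at T32. The genotypes overlapped at every time point. WT T16 replicate 2 held the highest level of any library, more than 2-fold above the other WT library of that time point. Group means ran WT T16, KO T16, KO T6, WT T6, KO T32, WT T32, KO T0 and WT T0, with no overlap only between KO T16 and KO T6 and between WT T32 and KO T0. The KO minus WT differences were 0.25 ± 0.21, 0.10 ± 0.21, -0.08 ± 0.24 and 0.14 ± 0.21 from T0 to T32, and the average was 0.10 ± 0.11 (adjusted p = 0.52).

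**Figure D1:**
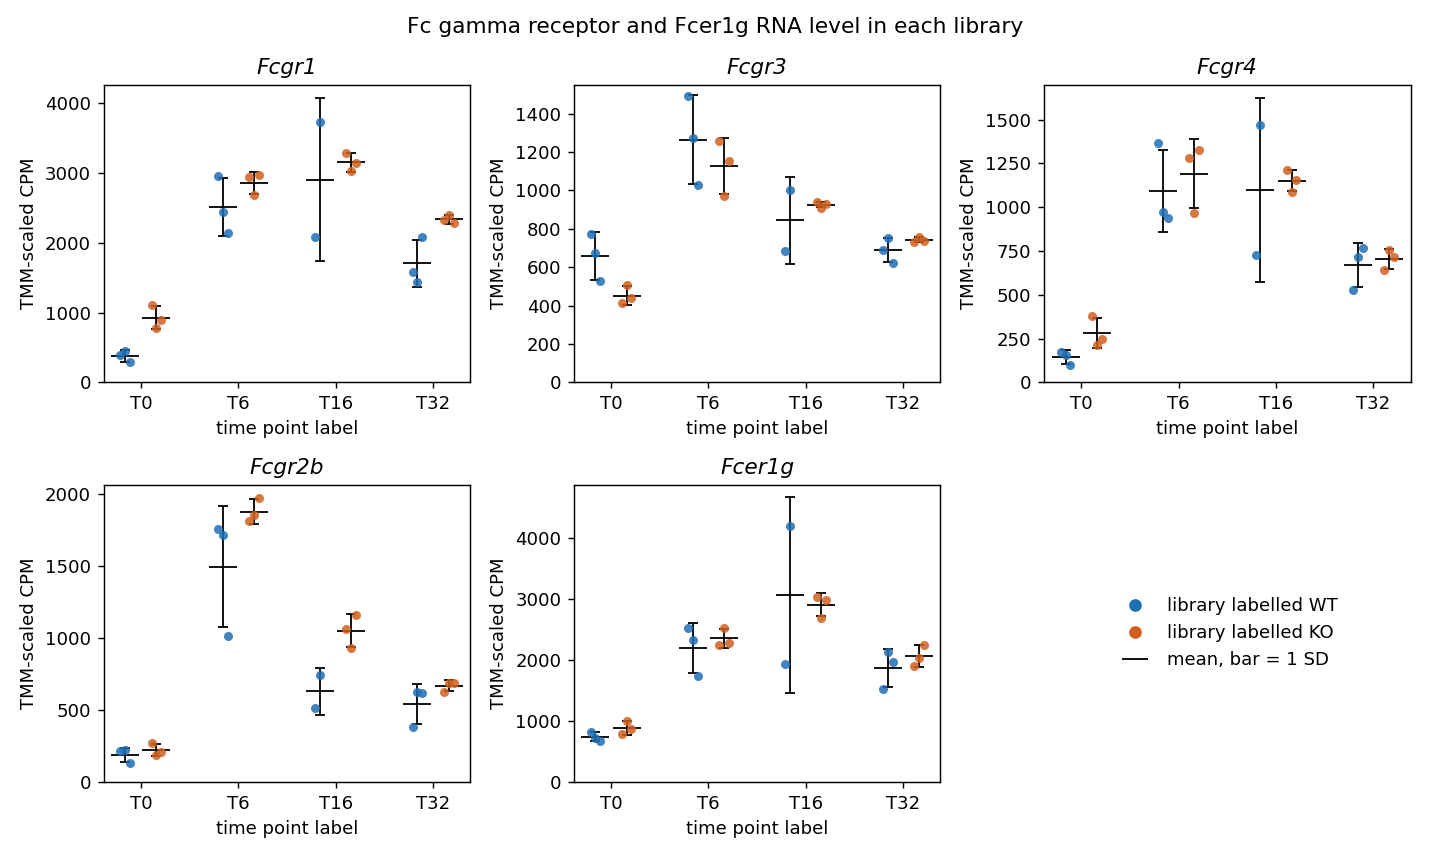
RNA level of each of the 5 genes in each library (points), by time point label on the x axis and TMM-scaled CPM on the y axis, with group means and 1 SD. All genes sit lowest or near lowest at T0, Fcgr2b peaks at T6, untreated Fcgr1 and Fcgr4 are higher and Fcgr3 lower in the 3 KO libraries than in the 3 WT libraries, and the 2 WT libraries at T16 lie far apart.

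**Figure D2:**
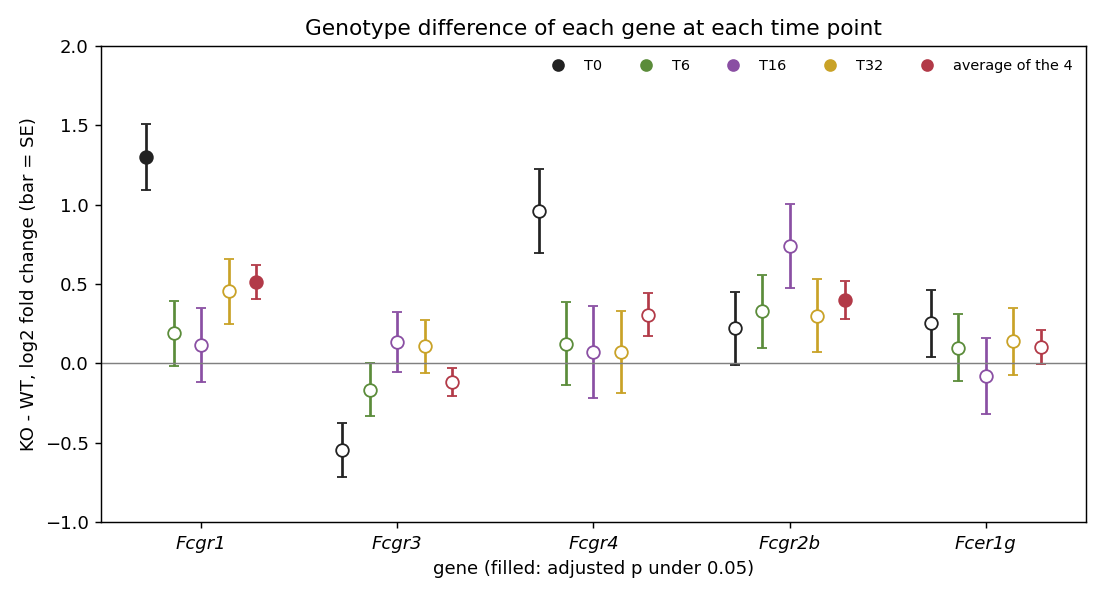
KO minus WT log2 fold change of each gene (x axis) by time point and as the average of all 4, with SE bars; filled points passed an adjusted p of 0.05. Fcgr1 at T0 (1.30) and the averages of Fcgr1 (0.51) and Fcgr2b (0.40) are filled, and Fcgr3 at T0 (-0.54) lies on the other side of 0.

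Counts of genes whose libraries did not overlap between genotypes were also taken. At T0 these were 3 of the 5 genes, Fcgr1 and Fcgr4 above and Fcgr3 below, against 15.1% of all genes tested (8.79% above and 6.3% below). At T6 only Fcgr2b was so placed, against 11% of all genes (5.96% above). At T16, with 2 WT libraries, only Fcgr2b was (41.9% of all genes, 20.4% above), and at T32 only Fcgr1 was (36.1% of all genes, 17.5% above). None of the 5 was called at T6 (0.298% of all genes called), at T16 (7.64%) or at T32 (6.39%). These shares moved with single libraries. The number of all genes called at T16 was 1206, and it was 3537 without WT T16 replicate 1 and 109 without WT T16 replicate 2. At T6 same-numbered libraries deviated together, and a fit with the replicate number as a block within T6, added after seeing the data, called 143 genes in place of 47 and still none of the 5, with Fcgr2b at 0.37 (adjusted p = 0.58).

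Fcgr1, Fcgr2b, Fcgr4 and Fcer1g were called as higher than T0 at all 3 LPS time points in both genotypes. Without untreated libraries at those time points, LPS and time in culture cannot be told apart. In WT the change from T0 to T6 on the log2 scale was 2.97 ± 0.25 for Fcgr2b, 2.92 ± 0.28 for Fcgr4, 2.74 ± 0.22 for Fcgr1, 1.56 ± 0.22 for Fcer1g and 0.94 ± 0.17 for Fcgr3 (SE, the largest adjusted p being 7.9e-05). All 5 genes were called as higher, against 27.3% of all genes tested and 59.1% called in either direction. Fcgr2b, the inhibitory receptor, thus rose about as much as the activating Fcgr4 and Fcgr1, and 7.84-fold in linear terms.

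By T16 in WT, Fcgr2b had come down to a change of 1.72 ± 0.26 while Fcgr1 stood at 2.95 ± 0.23, Fcgr4 at 2.93 ± 0.29 and Fcer1g at 2.04 ± 0.24 above T0. Those 4 genes were called as higher at T16, where 36% of all genes were called and 18.8% as higher. Fcgr3 was not called, at 0.35 ± 0.19 (adjusted p = 0.15). At T32 the changes were 2.21 ± 0.27 for Fcgr4, 2.18 ± 0.21 for Fcgr1, 1.51 ± 0.24 for Fcgr2b and 1.33 ± 0.22 for Fcer1g. Again those 4 were called as higher, against 24.5% of all genes (46.4% in either direction), and Fcgr3 was at 0.06 ± 0.17 (adjusted p = 0.78).

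In KO all 5 genes were called as higher at each of the 3 time points. The shares of all genes called as higher were 26.2% at T6, 20.4% at T16 and 18.2% at T32 (58.6%, 43.7% and 38.2% in either direction). Fcgr1 changed by 1.63 ± 0.21, 1.76 ± 0.21 and 1.33 ± 0.21 and Fcgr4 by 2.09 ± 0.27, 2.04 ± 0.27 and 1.33 ± 0.26, in each case a smaller number than in WT. Fcgr3 changed by 1.32 ± 0.17, 1.03 ± 0.17 and 0.71 ± 0.17, in each case a larger number than in WT. Fcgr2b changed by 3.08 ± 0.25, 2.24 ± 0.24 and 1.59 ± 0.24, and Fcer1g by 1.41 ± 0.22, 1.71 ± 0.22 and 1.22 ± 0.21. The 3 LPS comparisons of a genotype share their T0 libraries.

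The scaling matters for Fcgr3. Scaling by library totals in place of TMM moved the median change of all genes in WT from -0.14 to -0.94 at T6 and from -0.02 to -0.45 at T16. The Fcgr3 change in WT was then 0.13 at T6, no longer called (adjusted p = 0.419), -0.10 at T16 and -0.24 at T32. In KO its T32 change was 0.36 (adjusted p = 0.052). Relative to the median of all genes, Fcgr3 was above 0 at each time point under both scalings. The other 4 genes stayed called as higher in both genotypes at all time points under that scaling.

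**Figure D3:**
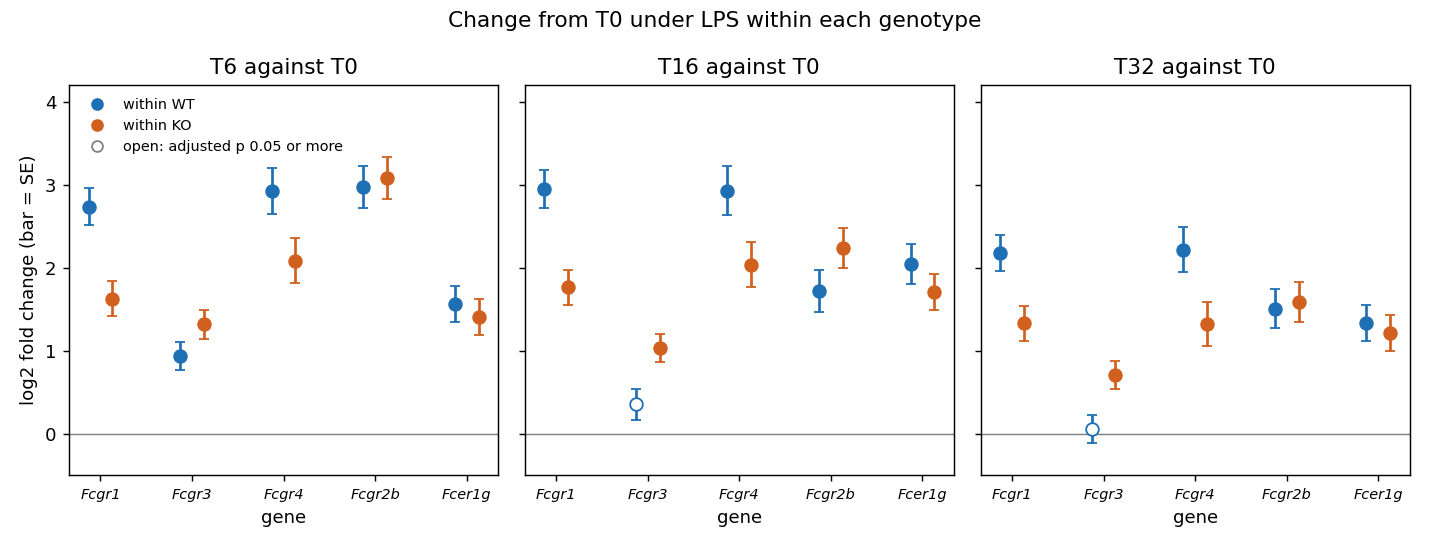
Log2 fold change from T0 to T6, T16 and T32 (panels) within WT and within KO for each gene, with SE bars; open points did not pass an adjusted p of 0.05. Fcgr1 and Fcgr4 sit lower in KO than in WT, Fcgr3 sits higher in KO, and the open points are Fcgr3 in WT at T16 (0.35) and T32 (0.06).

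Whether the LPS change differed between genotypes was tested directly. For Fcgr1 the change in KO minus that in WT was -1.11 ± 0.29 at T6 (adjusted p = 0.25 over all genes by edgeR), -1.18 ± 0.31 at T16 (adjusted p = 0.16) and -0.84 ± 0.29 at T32 (adjusted p = 0.27). None passed the threshold over all genes, and neither did the joint test of the 3 time points (adjusted p = 0.18 by edgeR). The Fcgr4 values were -0.83 ± 0.37, -0.89 ± 0.39 and -0.89 ± 0.37 (adjusted p = 0.91, 0.46 and 0.42). Those of Fcgr3 had the other sign, at 0.38 ± 0.24, 0.68 ± 0.25 and 0.65 ± 0.24 (adjusted p = 1, 0.36 and 0.31). Fcgr2b and Fcer1g were within 0.52 of 0 at every time point. With 0 of the 5 genes called, the share of all genes called was 0.101% at T6, 0.0697% at T16, 0.387% at T32 and 0.456% in the joint test. At an unadjusted p under 0.05, Fcgr1 and Fcgr4 at all 3 time points and Fcgr3 at T16 and T32 passed, against 5.09%, 9.61% and 9.05% of all genes at T6, T16 and T32.

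The Fcgr1 difference in LPS change passed with DESeq2 at T6 (-1.08, adjusted p = 0.0358) and T16 (-1.18, adjusted p = 0.0184), and with scaling by library totals at T6 (-1.14, adjusted p = 0.0375). At T16 it rested on which WT library was kept: without WT T16 replicate 1 it was -1.54 (adjusted p = 0.00722), when the number of all genes called rose from 11 to 1061, and without WT T16 replicate 2 it was -0.70 (adjusted p = 0.705). Each of these values contains the untreated difference, so Fcgr1 being higher in KO at T0 and its smaller rise in KO are not independent observations.

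Levels of different genes were compared per length, on the deposited size-factor-adjusted RPKM (nRPKM). Untreated WT macrophages held 425 ± 83.4 nRPKM of Fcgr3, 126 ± 28.3 of Fcgr1, 99.7 ± 29.4 of Fcgr4 and 43.5 ± 11.6 of Fcgr2b (SD, n = 3). Fcgr3 therefore supplied 62.4%, 58.2% and 63.6% of the summed receptor level in the 3 libraries. In untreated KO libraries Fcgr3 supplied 27.8%, 41.8% and 35.1%, and Fcgr1 supplied 38.5%, 33.6% and 37.5% against 16.2%, 20.3% and 18.2% in WT. The sum of the 4 receptors was 529 to 805 nRPKM in WT and 788 to 962 nRPKM in KO, so the totals overlapped while the shares of Fcgr1 and of Fcgr3 did not. Fcgr4 supplied 12.6% to 15.2% in WT and 18.98% to 27.2% in KO.

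After LPS the Fcgr1 and Fcgr3 shares of the 2 genotypes lay closer together. The Fcgr1 shares still did not overlap at T6, T16 or T32, and the Fcgr3 shares did not overlap at T6. At T6 the Fcgr1 share was 30.1% to 31.7% in WT and 31.8% to 34.4% in KO, the Fcgr3 share 29.1% to 30.4% and 23.9% to 26.2%, and the Fcgr4 share 24.9% to 28.8% and 25.6% to 29.5%. The Fcgr2b share reached 10.2% to 14.5% in WT and 13.3% to 16.2% in KO, its highest in either genotype. At T16 Fcgr1 was the most abundant receptor per length in all 5 libraries. Its share was then slightly higher in WT, at 39.67% to 40.58% against 38.74% to 39.57% in KO. At T32 it supplied 30.1% to 39.5% in WT and 40.4% to 42.4% in KO. The Fcgr2b shares depend on the gene size used, which was 3810 bases in the deposited table, while its 4 coding transcripts in GENCODE M21 span 1084 to 3544 bases.

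**Figure D4:**
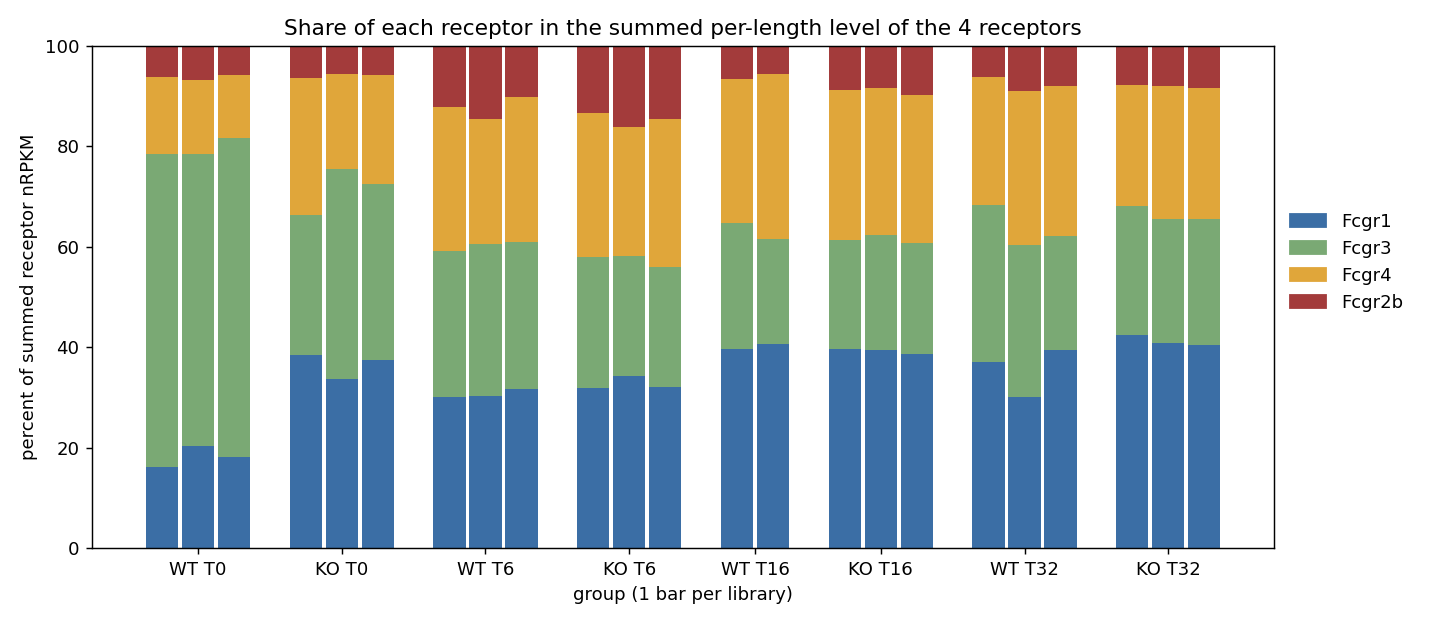
Percent of the summed nRPKM of the 4 receptors (y axis) held by each receptor, 1 bar per library, grouped by genotype and time point. Fcgr3 fills 58.2% to 63.6% of the untreated WT bars and 27.8% to 41.8% of the untreated KO bars, and Fcgr2b is widest at T6.

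The ratio of activating receptors (Fcgr1, Fcgr3 and Fcgr4 summed, nRPKM) to the inhibitory Fcgr2b was 13.9 to 16.6 in untreated WT libraries and 14.6 to 16.9 in untreated KO libraries. It was lowest at T6, at 7.23, 5.90 and 8.77 in WT and 6.49, 5.19 and 5.90 in KO in order of replicate. The ranges of the genotypes overlapped there. At T16 it was 13.97 and 17.1 in WT and 9.25 to 11.1 in KO, without overlap, and at T32 it was 10.2 to 15.3 and 10.996 to 11.8. The untreated ratio therefore overlapped between genotypes although its parts did not: the Fcgr4 to Fcgr2b ratio was 2.19 to 2.44 in WT and 3.40 to 4.24 in KO, and the Fcgr3 to Fcgr2b ratio was 8.66 to 11.2 in WT and 4.34 to 7.49 in KO. Fcer1g was present at 0.970 to 1.69 times the summed activating receptors in every library. Ratios were computed within a library and were given no test. Like the shares, their absolute size depends on the gene sizes used. For Fcgr2b that was 3810 bases, against coding transcripts of 1084 to 3544 bases.

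Across the 23 libraries, Fcgr1 and Fcgr4 had the most similar profiles among the 5 genes (Pearson's r of log2 CPM 0.978). Fcgr1 and Fcgr3 were the least similar pair, at 0.638, and Fcgr2b and Fcgr3, the close relatives, were at 0.87. These are descriptions over 23 libraries of 8 groups, which share the time course, the culture and the scaling. Among 9284 other genes with a mean of at least 5 CPM, the profile nearest to Fcgr1 was that of AW011738 (0.99), followed by Irf7 (0.985), an interferon regulatory factor, and Ms4a4c (0.982). Nearest to Fcgr4 were Lrrc25 (0.982), Isg20 (0.98), an interferon-stimulated exonuclease, and Lgals9 (0.978), a galectin. Nearest to Fcgr2b were Lyn (0.985), a Src-family kinase that phosphorylates both activation and inhibition motifs, Lrrc8c (0.981) and Adora3 (0.978), an adenosine receptor. Nearest to Fcer1g were Rac2 (0.977), a haematopoietic GTPase, Ift22 (0.966) and Hcls1 (0.965). The values for Fcgr3 were lower, with Atp1b3 at 0.922, Ehd1 at 0.909 and Zfp811 at 0.909.

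Between genotypes, 1.95% of all genes tested were called at T0, 0.298% at T6, 7.64% at T16, 6.39% at T32 and 22.3% in the average. For LPS in WT the shares were 59.1% at T6, 36% at T16 and 46.4% at T32. The counts of the lists below stand beside these shares. Among transcription factors known at Fc receptor promoters, 3 of 16 were higher in untreated KO cells and none lower, with a median difference of 0.09 on the log2 scale against 0.002 over all genes. Among them were Stat2 (1.38 ± 0.17, adjusted p = 8.2e-05) and Irf9 (0.43 ± 0.10, adjusted p = 0.023), whose products act in interferon signalling. The call of Stat2 held when each T0 library was left out in turn, and the Irf9 call was lost in 4 of 6 leave-outs, with an adjusted p of up to 0.13. Spi1 was not called at any time point. At T6 Stat3 was higher (0.55 ± 0.11) and Tfeb lower (-0.89 ± 0.18), at T16 Stat3 (0.43 ± 0.12) and Runx1 (0.51 ± 0.12) were higher, and at T32 Cebpd was lower (-1.43 ± 0.38). Stat3 and Tfeb at T6 and Cebpd at T32 each lost the call in 4 of 6 leave-outs, with adjusted p of up to 0.16, 0.22 and 0.18, and Stat3 at T6 also lost it with library totals. In the average 8 of the 16 were higher and 1 lower, among them Cebpd (-0.84 ± 0.19), Stat2 (0.64 ± 0.09) and Irf1 (0.44 ± 0.10); with scaling by library totals the split was 4 and 4. LPS in WT raised 13 and lowered 2 of them at T6, with Stat3 at 2.91, Cebpd at 2.87, Cebpa at -4.85 and Tfeb at -1.83. Stat2 was among the leading rises at T16 (1.89) and T32 (1.86). The leading falls were Cebpa (-1.34) and Tfec (-1.22) at T16 and Cebpa (-2.05) and Tfeb (-1.24) at T32.

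Of the kinases, adaptors and effectors downstream of Fc receptors, 0 of 39 tested were called between genotypes at T0 or T6, at medians of 0.10 and 0.07. Of all genes, 1.95% and 0.298% were called there. At T16 4 were higher in KO: Vav3 (1.06 ± 0.32) and Gab2 (0.78 ± 0.18), a guanine nucleotide exchange factor and a docking adaptor, Nckap1l (0.65 ± 0.16) of the actin-regulating WAVE complex, and the kinase Src (0.58 ± 0.15). None of these 4 calls held with scaling by library totals (adjusted p of 0.052 to 0.087). Src was also higher at T32 (0.61 ± 0.14), a call lost in 3 of 6 leave-outs (adjusted p of up to 0.081). In the average 9 of the 39 were higher and 1 lower, where 22.3% of all genes were called and 12.1% as higher. The largest values were those of Vav3 (0.62 ± 0.14), Src (0.55 ± 0.07), Pld1 (0.47 ± 0.12) and Nckap1l (0.43 ± 0.07). The median of the 39 was 0.15 against -0.015 over all genes, and with library totals 4 were higher and 10 lower. In WT, LPS raised 26 and lowered 7 at T6, led by Pla2g4a (5.79), Src (4.22), Plcg1 (-1.84) and Card9 (-1.41). With library totals these counts were 16 and 15. At T16 19 rose and 3 fell, with Pla2g4a (3.58) above and Mapk3 (-0.67) and Plcg1 (-0.62) below, and at T32 22 rose and 6 fell, with Pla2g4a (3.72) and Lcp2 (1.96) above and Tec (-0.96) and Blnk (-0.88) below.

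The phosphatases and ubiquitin ligases that restrain Fc receptor signalling had 0 of 15 called between genotypes at T0 and T6 (1.95% and 0.298% of all genes), at medians of 0.09 and -0.02. Cblb, a ubiquitin ligase, was higher in KO at T16 (1.06 ± 0.23), at T32 (0.83 ± 0.20) and in the average (0.54 ± 0.10). Its T32 call was lost in 3 of 6 leave-outs (adjusted p of up to 0.094). Pag1, an adaptor for the kinase Csk, was higher at T16 (1.13 ± 0.32) and in the average (0.60 ± 0.14). In WT, LPS at T6 raised 8 and lowered 1, with Ubash3b at 2.89, Ptprj at 2.67 and Inpp5d, which encodes the phosphatase used by Fcgr2b, at -1.98. Library totals gave 3 raised and 6 lowered. At T16 6 rose and 1 fell, with Ubash3b at 1.97, Ptprj at 1.65 and Cblb at -0.95, and at T32 8 rose and none fell, with Ptprj at 2.20 and Pag1 at 1.79.

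Receptors that pair with the gamma chain or with DAP12, a related adaptor, had 2 of 18 higher in untreated KO cells: Sirpb1a (1.51 ± 0.34) and Clec5a (0.55 ± 0.12). The median of the 18 was 0.27 against 0.002 over all genes. Sirpb1a lost the call in 4 of 6 leave-outs and Clec5a in 5 of 6. None was called at T6. At T16 Trem1, an amplifier of inflammation (2.38 ± 0.36), and Clec5a (0.47 ± 0.14) were higher. At T32 6 were higher, led by Trem1 (1.45 ± 0.33), Gp6 (1.42 ± 0.32), Tarm1 (1.02 ± 0.26) and Clec4d (0.78 ± 0.16). Of these 6 calls only that of Clec4d held in each leave-out, while Trem1 lost it in 2 of 6, Gp6 in 1 of 6 and Tarm1 in 4 of 6. Trem1 and Gp6 were scarce, with group means of at most 8.24 and 1.57 CPM. The neutrophil marker sum given above was also higher in all 3 KO libraries at T32, and its part in these values was not tested. In the average 8 were higher and none lower, at a median of 0.39, led by Trem1 (1.38 ± 0.16), Trem3 (0.73 ± 0.17), Tarm1 (0.73 ± 0.15) and Sirpb1a (0.70 ± 0.17). With library totals 6 were higher and 2 lower. LPS in WT raised 9, 6 and 6 and lowered 3, 2 and 3 at T6, T16 and T32. With library totals the counts at T6 were 5 raised and 6 lowered. Tarm1 (8.78, 7.67 and 5.48) and Clec4e (6.34, 5.34 and 4.66), both of which pair with the gamma chain, rose most at each time point. The largest falls were Cd300lb (-2.79) and Cd300ld (-0.95) at T6, Trem2 (-2.14) and Cd300lb (-1.03) at T16, and Trem2 (-2.86) and Clec4n (-1.26) at T32.

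Other myeloid receptors listed as inhibitory had 2 of 15 higher in untreated KO cells, the collagen receptor Lair1 (0.90 ± 0.10, adjusted p = 4.9e-05) and Clec12a (0.73 ± 0.14, adjusted p = 0.0066). The calls of both held in each leave-out of a T0 library, and the median of the 15 was 0.26. Cd300lf was higher at T16 (1.78 ± 0.29), T32 (2.002 ± 0.25) and in the average (1.33 ± 0.13). Cd33 was higher at T16 (1.86 ± 0.32), T32 (1.64 ± 0.28) and in the average (1.13 ± 0.14), and Cd200r1 at T16 (1.22 ± 0.32). In the average 5 were higher and 2 lower, among them Siglece (-0.70 ± 0.18) and Cd200r1 (0.67 ± 0.14), and with library totals 4 and 3. LPS in WT raised 5, 6 and 7 and lowered 2, 1 and 1 of them at T6, T16 and T32, and with library totals at T6 it raised 4 and lowered 6. Cd33 (2.71) and Siglece (2.62) led at T6, Siglece (5.46) and Pecam1 (2.25) at T16, and Siglece (4.74) and Milr1 (1.46) at T32. Cd300a fell at each time point (-2.03, -1.32 and -1.30), and Lair1 at T6 (-0.83).

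Of 12 other genes of Fc receptors, Fc receptor-like proteins and proteins that bind immunoglobulin, 7 were tested. None was called between genotypes at T0 or T6, at medians of -0.06 and -0.24. Fcrls, an Fc receptor-like protein, was lower in KO at T16 (-1.68 ± 0.47), at T32 (-2.65 ± 0.46) and in the average (-1.82 ± 0.22). In the average the neonatal Fc receptor Fcgrt was also lower (-0.48 ± 0.10), and Trim21, a cytosolic antibody receptor, was higher (0.68 ± 0.12). At T32 Lgals3, a galectin that binds IgE, was higher (0.82 ± 0.24), a call lost in 5 of 6 leave-outs (adjusted p of up to 0.20) and with library totals. The Fcrls call at T32 held in each leave-out. LPS in WT raised 2 and lowered 3 of the 7 at each time point. The rises were Trim21 (3.59, 1.75 and 1.77) and Fcrl5 (2.48, 3.66 and 4.49), the latter at group means of at most 3.11 CPM. The largest falls were Fcrl1 (-1.77) and Fcgrt (-0.81) at T6 and Lgals3 (-2.33 and -1.90) and Fcrls (-2.26 and -2.78) at T16 and T32.

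Across these 6 lists, 14 genes were called between genotypes at T16, and 12 of them lost the call without WT T16 replicate 2, all but Trem1 and Cd300lf. Without KO T16 replicate 1, the T16 calls of Src, Vav3, Nckap1l, Pag1, Fcrls, Clec5a, Cd200r1, Stat3 and Runx1 were lost. With scaling by library totals, those of Src, Vav3, Gab2, Nckap1l, Pag1, Clec5a, Stat3 and Runx1 were lost. Of 13 called at T32, 4 held in each leave-out: Fcrls, Clec4d, Cd300lf and Cd33. The lists were drawn up with earlier results of these data known, and their counts are set beside the shares of all genes called given above.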

How the data were processed

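RNA was sequenced in 23 libraries of mouse BMDMs, with a TruSeq RNA v2 kit and single-end reads of 50 bases per the labels' protocols, and reads were aligned with GSNAP to GRCm38 per the submitters' processing notes. The deposited counts are reads that aligned uniquely to a gene model, and the deposited nRPKM values are RPKM adjusted by a size factor, both per the file headers. No row lacked a gene. The members and lists were chosen with earlier results of these data known.

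Counts were fitted with edgeR 4.0.16 in R 4.3.3 (filterByExpr, TMM scaling, robust quasi-likelihood fit, 8 group means over 23 libraries, two-sided), with Benjamini-Hochberg adjustment over 15782 of 52636 genes and a threshold of 0.05. The WT T16 group had 2 libraries. Standard errors are the log2 fold change divided by the root of F. CPM are TMM-scaled, log2 CPM used a prior count of 1, and shares and ratios between genes used nRPKM. Total counts of 19455080 to 44097733 gave each member at least 4082 counts per library, so counting error was small beside the spread between libraries. The script was tested on simulated counts.

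Named genes were all 5 members. Per list and genotype comparison, all called genes were named where at most 5 were called and otherwise the 4 with the largest change. For LPS in WT the 2 largest rises and 2 largest falls were named. For likeness, the 3 genes with the highest correlation were named among those with a mean of at least 5 CPM.

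Alternatives were DESeq2 1.42.0, limma 3.58.1 on log2(nRPKM + 0.1), RLE scaling, library totals, no filter, only the compared groups, Fcgr2b and Fcgr3 summed, leaving out each library and leaving out the WT libraries with at least 5 CPM of Y-linked transcripts. Fits with the replicate number as a block, over all time points and within T6, were added after seeing the data. Same-numbered libraries deviated together at T6 (3 of 3 correlations over 0.1). Protein sequences were not used here, and the values of a few genes that the naming rule picks are not reported here.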

Additional observations from a re-analysis of the deposited data

How the results depend on the processing

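Values are KO minus WT or LPS minus T0 on the log2 scale, with adjusted p over all genes by the tool named or by edgeR. Across all alternatives and results, 1255 values kept their direction and side of the threshold, 34 reversed, 21 passed only under the alternative and 5 no longer passed; the cause was not tested. DESeq2 called Fcgr3 at T0 (-0.54, 0.0497), Fcgr4 at T0 (0.97, 0.0144) and Fcgr2b at T16 (0.75, 0.0368), so 3 members were called at T0 and 1 at T16, against 1 and 0. It also called 1 member in the difference of LPS change at T6 and 1 at T16, against 0. Scaling by library totals called 2 members at T0, with Fcgr3 at -0.68 (0.0166), 1 in the difference at T6 and 1 in the joint test. It reversed Fcgr4 (-0.06) and Fcer1g (-0.08) at T6, Fcgr1 (-0.01), Fcgr3 (-0.01) and Fcgr4 (-0.05) at T16, Fcgr3 (-0.08), Fcgr4 (-0.11) and Fcer1g (-0.05) at T32 and Fcer1g in the average (-0.05). In the average it gave Fcgr2b 0.23 (0.0782) and Fcgr3 -0.28 (0.00791). For Fcgr3 under LPS it gave 0.13 (0.419), -0.10 and -0.24 in WT at T6, T16 and T32 and 0.36 (0.052) in KO at T32. With Fcgr2b and Fcgr3 summed, the value was -0.33 at T0, 0.12 at T6, 0.10 (0.438) in the average, and 0.79 (0.00352) and 0.53 (0.0195) for LPS in WT at T16 and T32. Fcer1g at T16 was 0.04 with limma and 0.58 with the WT libraries that held Y-linked transcripts left out. Without those libraries Fcgr1 at T32 was 0.63 (0.0328), the averages of Fcgr4 and Fcer1g were 0.55 (0.0147) and 0.30 (0.0452), 1 member was called at T32 and 4 in the average, and the Fcer1g difference of LPS change at T16 was 0.34.

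Leaving out 1 library at a time (where 1 WT T16 library is left, it is assumed to vary like the other groups) gave Fcgr4 at T0 0.69 to 1.15. Fcer1g at T6 ran from -0.04 to 0.21. At T16 Fcgr1 ran from -0.24 to 0.60, Fcgr3 from -0.11 to 0.43, Fcgr4 from -0.35 to 0.66 and Fcer1g from -0.53 to 0.58, the ends in each case being the fits without one or other WT T16 library. Fcgr4 at T32 ran from -0.07 to 0.18. The averages were 0.34 to 0.47 for Fcgr2b, 0.20 to 0.45 for Fcgr4 and -0.01 to 0.27 for Fcer1g, the latter called without WT T16 replicate 2 (0.0423). Fcgr3 under LPS in WT was 0.06 to 0.60 at T16, called without WT T16 replicate 1 (0.0326), and -0.06 to 0.21 at T32. In the difference of LPS change, Fcgr2b was -0.11 to 0.30 at T6 and -0.12 to 0.27 at T32, and Fcer1g -0.78 to 0.33 at T16. Fcgr4 at T16 passed without WT T16 replicate 1 (-1.31, 0.0496). Members called ranged from 1 to 2 at T0, 1 to 4 in the average, 0 to 2 in the difference at T16 and 0 to 1 in the joint test.

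The number of all genes called moved with the tool and with single libraries. At T0 it was 307, against 507 with DESeq2 and 126 with only the compared groups, and 164 without WT T0 replicate 3. At T6 it was 47, against 276 (DESeq2), 92 (limma), 29 (no filter), 78 (replicate block), 143 (replicate block within T6), 122 (library totals), 0 (compared groups), 28 (without Y-linked WT libraries), 15 (without KO T6 replicate 3) and 18 (without WT T6 replicate 1). At T16 it was 1206, against 2141 (DESeq2), 705 (no filter), 9 (compared groups), 117 (without Y-linked WT libraries), 3537 and 109 (without WT T16 replicate 1 and 2), and 419 and 482 (without KO T16 replicate 1 and 3). At T32 it was 1009, against 2688 with only the compared groups and 363 to 643 without WT T32 replicate 1 or 2 or any 1 KO T32 library, and in the average 3527 against 5596 with library totals. In the difference of LPS change it was 16 at T6 (DESeq2 87, library totals 37, replicate block 9, RLE 7, compared groups 0), 11 at T16 (DESeq2 243, limma 19, library totals 19, compared groups 3), 61 at T32 (DESeq2 225, limma 93, without Y-linked WT libraries 26) and 72 in the joint test (without Y-linked WT libraries 22). Leaving out single libraries gave as few as 1 at T6, 4 at T16, 29 at T32 and 25 in the joint test, and without WT T16 replicate 1 it was 1061 at T16 and 639 in the joint test. For LPS in WT at T16 it was 5680, against 3473 without Y-linked WT libraries. Library totals lowered the share of calls that were higher from 70.2% to 13.1% at T6, 54.4% to 21.8% at T16, 47.8% to 20.1% at T32, 54% to 16.8% in the average and 46.1% to 19.3% for LPS in WT at T6. The replicate block changed no member's call, over all time points or within T6. Same-numbered libraries deviated together at T6 (correlations of 0.329, 0.593 and 0.357 in the 3 pairs) but in only 1 of the 8 pairs at the other time points (-0.317 to 0.155), so the numbers, which follow accession order, may pair the samples at T6 only.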
